A study of Mus musculus with 12 samples.

Results

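Gene expression after butyrate alone was compared directly with gene expression after UK5099 alone in mouse prostate organoids. Genes entered when their mean was at least 1 TPM (transcripts per 1000000) in either group, which held for 13867 of the 24674 genes in the table, 10309 of them protein coding. Nearest the limit, the larger of the group means was 1.0003 TPM inside and 0.998 TPM outside. The organoids, small gel cultures of epithelium, were grown from basal cells of the prostate of wild type C57BL/6 mice. 3 samples were given butyrate, 3 were given UK5099, 3 were given vehicle and 3 were given both drugs. All groups shared the genotype and strain, and their labels state no genetic change. The labels give neither dose nor duration, and nothing in them says that replicates came from separate animals or cultures, so p-values measure the spread between these samples, which may be technical.

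UK5099 inhibits the mitochondrial pyruvate carrier, a heterodimer of Mpc1 and Mpc2 that moves pyruvate from the cytosol into the mitochondrial matrix, where it supplies acetyl-CoA and the TCA cycle. Butyrate is a short-chain fatty acid that enters cells through monocarboxylate transporters, can be oxidised to acetyl-CoA, and inhibits histone deacetylases, the enzymes that remove acetyl groups from histones. Basal cells of the prostate carry the keratins Krt5 and Krt14 and the transcription factor Trp63, whereas luminal cells carry Krt8 and Krt18. Stratified epithelia that cornify switch on Krt10 and the small proline-rich proteins, which are cross-linked into the cell envelope.

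Depth was between 35453400 and 41100600 recovered fragments in the butyrate and UK5099 samples. Replicates lay close together, with a median coefficient of variation of 3.44% with butyrate and 4.39% with UK5099. The first principal component of these 6 samples separated the drugs and held 73.4% of the variance. UK5099 replicate 1 stood apart from the other two on the second component, which held 9.09%. Basal markers were present throughout: the summed level of Krt5, Krt14, Trp63 and Krt15 was between 6887 and 7124 TPM with butyrate and between 13438 and 13814 TPM with UK5099. Defining markers of endothelial cells summed to at most 0.0348 TPM with either drug and 0.0415 TPM with vehicle, and Ptprc, which marks leukocytes, was at or near 0 in every sample.

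A gene was called when limma on log2(TPM + 1) gave an adjusted p-value under 0.01 and a difference over 1 on that scale, the limits of the study. Butyrate and UK5099 differed in 459 genes, 3.31% of the genes compared and 1.86% of the whole table. Of these, 168 were higher with butyrate (1.21%) and 291 were higher with UK5099 (2.1%). In all 459 the butyrate and UK5099 values did not overlap, which was also so for 71.4% of all genes compared, 53.8% with UK5099 higher and 17.6% with butyrate higher. Most differences were modest, with a median size of 1.28 on the log2 scale, and differences over 2 were seen in 13 genes higher with butyrate and 48 higher with UK5099. The balance between directions depended on scaling. As deposited, the median gene stood at -0.16 (butyrate minus UK5099, log2), so that a gene at -0.16 moved with the rest. Scaling by the median of ratios moved this median by 0.17 and called 2.94% of genes: 225 genes were higher with butyrate (1.62%) and 182 higher with UK5099 (1.31%). Both kinds of scaling called 167 of the 168 genes higher with butyrate and 182 of the 291 higher with UK5099. The share of called genes that were higher with butyrate was 36.6% as deposited and 55.3% after scaling. The factors that divide the values in this scaling were 1.18 to 1.20 for vehicle, 1.06 to 1.09 for UK5099 and 0.924 to 0.933 for butyrate. Scaling thus lowers vehicle against both drugs, and most against butyrate. Levels and differences against vehicle are given as deposited throughout.

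**Figure D1:**
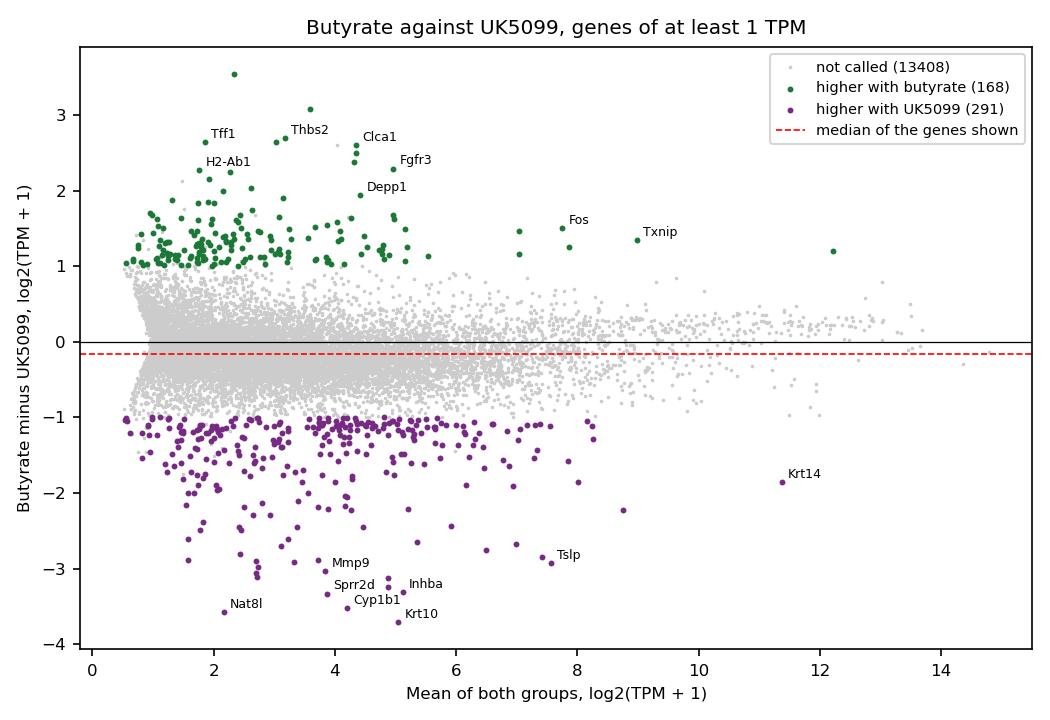
Each point is 1 of 13867 genes; the x axis is its mean level in both groups and the y axis the difference, butyrate minus UK5099, both as log2(TPM + 1). Green points (168) were called higher with butyrate and purple points (291) higher with UK5099; the dashed line is the median of all genes, -0.16, and the purple points reach further from it than the green ones among protein-coding genes, down to Krt10 at -3.70.

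The genes that stood highest with UK5099 included cornified-envelope genes and secreted proteases. Small proline-rich proteins were called higher with UK5099 in 8 of 13 measured members and higher with butyrate in 0. Matrix metalloproteases, which cleave extracellular matrix, were called higher with UK5099 in 4 of 9 and higher with butyrate in 0. Neither family was uniform. In 3 small proline-rich genes and 2 metalloproteases, none of them called, every butyrate value lay above every UK5099 value. This was so for 17.6% of all genes compared. These families were picked after their values were seen and have no test of their own. Over all genes compared, 2.1% were called higher with UK5099.

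Genes of both families are textbook targets of AP-1, a dimer of Fos and Jun family proteins that binds the letters TGANTCA. The promoters below, the 250 bases before the RefSeq start of each gene (RefSeq, GRCm38.p6, written in the direction of the gene), are shown because each holds that motif. Capitals mark the match to TGANTCA.
Mmp3 (chr9:7445572-7445821, plus strand): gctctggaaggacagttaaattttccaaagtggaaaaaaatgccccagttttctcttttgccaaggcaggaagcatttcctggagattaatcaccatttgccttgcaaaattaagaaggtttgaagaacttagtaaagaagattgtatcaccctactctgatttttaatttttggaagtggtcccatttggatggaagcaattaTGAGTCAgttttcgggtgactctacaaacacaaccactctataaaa
Mmp10 (chr9:7502092-7502341, plus strand): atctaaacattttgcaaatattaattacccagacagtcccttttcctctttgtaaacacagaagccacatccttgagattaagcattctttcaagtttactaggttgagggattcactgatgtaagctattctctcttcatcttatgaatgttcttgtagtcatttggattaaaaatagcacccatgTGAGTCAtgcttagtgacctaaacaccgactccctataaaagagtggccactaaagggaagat
Mmp13 (chr9:7272264-7272513, plus strand): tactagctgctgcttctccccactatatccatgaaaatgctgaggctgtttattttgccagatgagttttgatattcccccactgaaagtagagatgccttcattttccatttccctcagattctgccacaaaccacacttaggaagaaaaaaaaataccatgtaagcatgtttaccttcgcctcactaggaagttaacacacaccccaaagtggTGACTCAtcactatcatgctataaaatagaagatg
Sprr2d (chr3:92338890-92339139, plus strand): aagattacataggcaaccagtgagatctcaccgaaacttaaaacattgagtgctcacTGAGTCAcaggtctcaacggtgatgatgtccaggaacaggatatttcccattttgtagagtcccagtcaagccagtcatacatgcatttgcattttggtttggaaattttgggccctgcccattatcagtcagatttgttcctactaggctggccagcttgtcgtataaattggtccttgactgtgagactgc
Sprr1b (chr3:92438780-92439029, minus strand): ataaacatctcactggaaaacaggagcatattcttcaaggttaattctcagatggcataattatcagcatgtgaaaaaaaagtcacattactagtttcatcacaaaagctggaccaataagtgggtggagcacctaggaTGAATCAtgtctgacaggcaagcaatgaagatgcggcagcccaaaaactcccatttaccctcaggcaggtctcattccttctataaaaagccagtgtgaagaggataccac
The first letter of the match lies at -46 in Mmp3, -63 in Mmp10, -35 in Mmp13, -193 in Sprr2d and -111 in Sprr1b, where -1 is the last base before the start. The letters were TGAGTCA in Mmp3, Mmp10 and Sprr2d, TGACTCA in Mmp13 and TGAATCA in Sprr1b. It was found in 3 of 3 called metalloproteases and 7 of 7 called small proline-rich genes with a promoter in the table. Mmp9 and Sprr2g had no entry. Members of these families that were not called were not counted apart. These counts therefore cannot show whether the motif goes with the difference or with the family. The Sprr2 genes are close copies that lie together on chromosome 3, and their promoters share sequence, so they are not separate cases. Of all 32851 promoters, 6.75% held the motif on either strand, which is the same search because TGANTCA reads alike on both. Among protein-coding genes with an entry, it was held by 31 of 190 called higher with UK5099 (16.3%), 9 of 96 called higher with butyrate (9.38%) and 463 of 8254 compared (5.61%). Without the metalloproteases and small proline-rich genes, the share among those higher with UK5099 was 11.7%.

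The TATA box (TATAAA, either strand) was held by 42 of 190 genes higher with UK5099 (22.1%) and 25 of 96 higher with butyrate (26.0%), against 7.91% of those compared. The GC box (GGGCGG) was held by 54.7% and 45.8%, against 66.1%. The CCAAT box (CCAAT) was held by 31.6% and 43.8%, against 41.0%, and the core of the interferon-stimulated response element (GAAANNGAA) by 8.95% and 8.33%, against 6.95%. Both groups of called genes thus held the TATA box more often and the GC box less often than the genes compared, as shares without a test. A match is a run of letters, not evidence that a factor binds there.

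The AP-1 subunits themselves went in both directions. Fos, an immediate-early subunit, measured 358, 362 and 366 TPM with butyrate and 124, 130 and 126 TPM with UK5099, a difference of 1.51 ± 0.03 (log2, SE; limma, adjusted p = 1.22e-09). Fosl1, the subunit also called Fra-1, measured 8.83, 9.70 and 10.3 TPM with butyrate and 34.2, 36.0 and 35.1 TPM with UK5099, a difference of -1.77 ± 0.05. The lowest sample of the higher group was above the highest of the other in each case. Vehicle stood at a mean of 178 TPM for Fos and 13.0 TPM for Fosl1. Fragments of Fosl1 came out fractional where this could be read, so its separate level is uncertain. Atf3, which also dimerises with Jun proteins, was higher with butyrate (1.049), and Fosl2 was higher with UK5099 at -1.12 as deposited and at -0.91, short of the limit, after scaling. The other 4 of 8 measured subunits were not called.

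Mmp3, stromelysin-1, measured 8.94, 8.99 and 9.03 TPM with butyrate and 83.2, 86.5 and 89.6 TPM with UK5099. UK5099 samples were 9.62 times higher on average, and the difference was -3.13 ± 0.03 (log2, SE; limma, adjusted p = 1.45e-10). Mmp10, stromelysin-2, measured 1.15, 1.18 and 1.33 TPM with butyrate and 18.7, 17.1 and 18.9 TPM with UK5099. Mmp13, a collagenase, measured 1.08, 1.44 and 1.65 TPM against 15.7, 17.0 and 17.5 TPM, and Mmp9, a gelatinase, 3.86, 4.03 and 4.12 TPM against 37.7, 40.3 and 41.9 TPM. The 4 differences ran from -3.13 (Mmp3) to -2.90 (Mmp13) on the log2 scale, with every UK5099 sample far above every butyrate sample. They differed in where vehicle stood. Vehicle averaged 56.6 TPM for Mmp9 and 12.1 TPM for Mmp10, nearer the UK5099 values, but 21.2 TPM for Mmp3 and 6.58 TPM for Mmp13, between the drugs. Fragments of Mmp3 and Mmp10 came out fractional where this could be read, so part of their signal was divided between similar genes and their separate levels are uncertain.

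Of the small proline-rich genes, Sprr2d measured 3.03, 4.69 and 3.12 TPM with butyrate and 50.3, 36.5 and 49.1 TPM with UK5099, a difference of -3.33 ± 0.18 (log2, SE; limma, adjusted p = 3.78e-07). Sprr1b measured 47.6, 45.8 and 53.5 TPM with butyrate and 303, 324 and 328 TPM with UK5099. Sprr2h stood between 31.0 and 36.4 TPM against 223 and 245 TPM. None of these groups overlapped, although Sprr2d spread more between replicates than the called metalloproteases did. Sprr2f, Sprr2g, Sprr2k, Sprr2e and Sprr2i made up the rest of the 8, with differences from -2.98 to -1.61. Vehicle means were 7.02 TPM for Sprr2d, 38.3 TPM for Sprr1b and 19.8 TPM for Sprr2h, nearer butyrate. Sprr2e differed in this, with 16.5 TPM in vehicle, 17.4 TPM with UK5099 and 4.62 TPM with butyrate, and Sprr2k lay between the drugs in vehicle, at 2.28 TPM. Fragments of Sprr2d, Sprr2e and Sprr2i were often fractional, so reads may be divided among the copies.

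**Figure D2:**
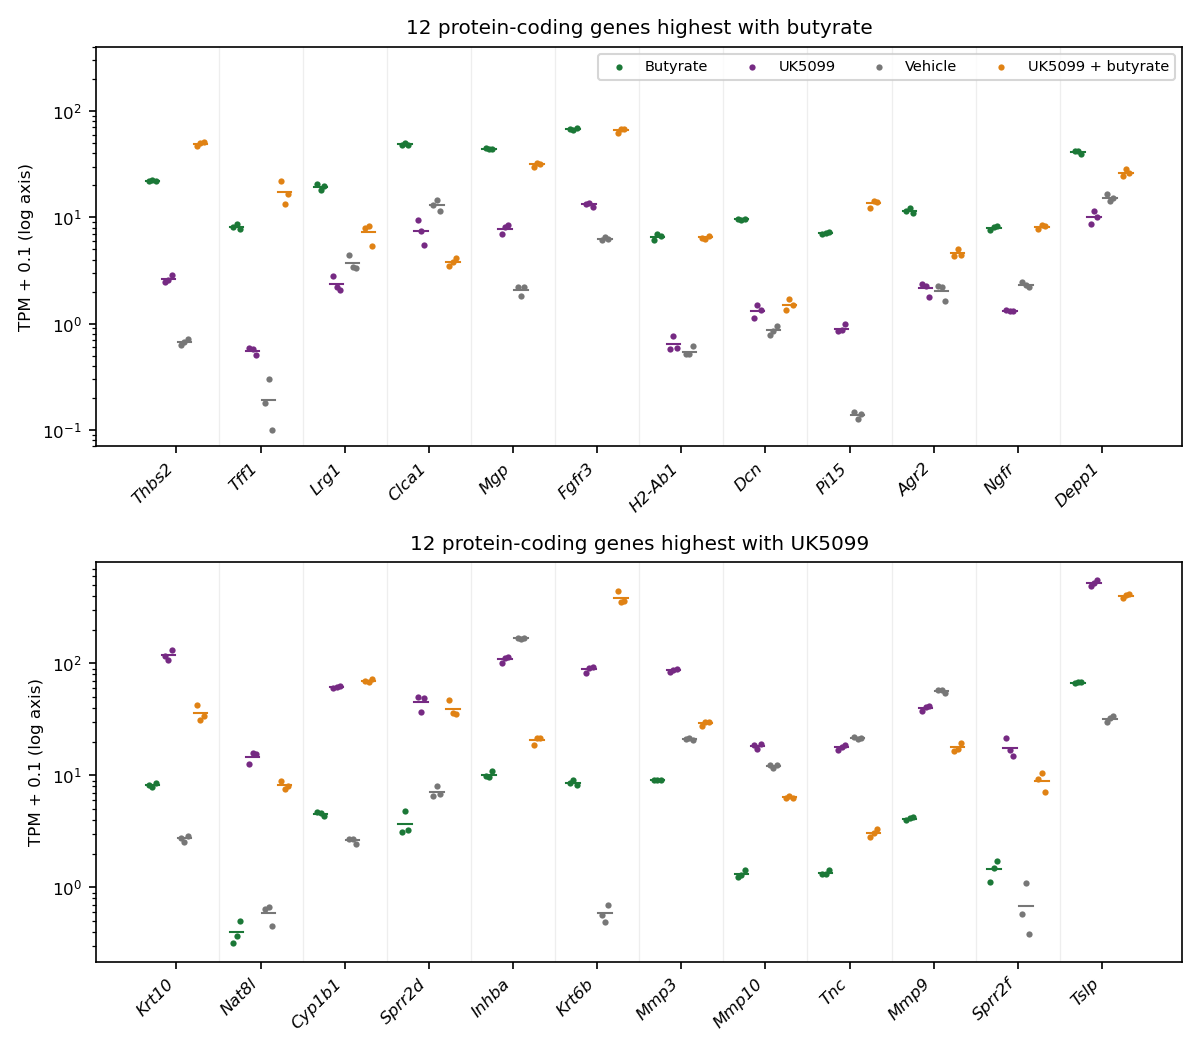
TPM + 0.1 on a log axis for the 12 protein-coding genes highest with butyrate (top) and the 12 highest with UK5099 (bottom), with 3 points per group and a line at the mean; green is butyrate, purple UK5099, grey vehicle and orange both drugs. Vehicle lies near butyrate for Krt10, Cyp1b1 and Nat8l, and near UK5099 for Inhba, Tnc and Mmp9; with both drugs Thbs2 exceeds its level under either drug.

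The wider list of squamous differentiation and cornified-envelope genes had 11 of 41 measured members called higher with UK5099 and 1 higher with butyrate, and the other 29 did not pass. In 7 of the 41 every butyrate value lay above every UK5099 value, against 17.6% of all genes compared. Its median difference was -0.61, against -0.16 over all genes. Krt10, the keratin of suprabasal cells that have begun to cornify, measured 8.16, 7.80 and 8.45 TPM with butyrate and 115, 108 and 132 TPM with UK5099, with a vehicle mean of 2.64 TPM. On log2(TPM + 1) this was the largest difference among called protein-coding genes, -3.70 ± 0.11 (log2, SE; limma, adjusted p = 1.12e-08). The order depends on the pseudocount: the ratio of means was 14.6 for Krt10 and 49.2 for Nat8l, which stood at -3.58, and by voom they differed by -3.68 and -5.47. UK5099 exceeded vehicle by 5.03 and butyrate exceeded it by 1.33, on the same scale and against the same vehicle samples. Krt6b, a keratin of activated epidermis, stood at means of 8.52 and 88.9 TPM, but its low fragment values were all fractional and its separation from close copies is uncertain.

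Among 20 keratin genes, 6 were called higher with UK5099, namely Krt10, Krt6b, Krt20, Krt16, Krt14 and Krt13, and 0 higher with butyrate. The other 14 did not pass. In 3 of them every butyrate value lay above every UK5099 value, and 1 was called higher with butyrate after scaling. Krt20, an intermediate filament of umbrella and intestinal cells, measured 2.83, 2.72 and 2.34 TPM with butyrate and 27.2, 24.1 and 27.9 TPM with UK5099. Krt13, of internal stratified epithelia, stood at 96.0 to 98.4 TPM with butyrate and 237 to 287 TPM with UK5099, both above the vehicle mean of 11.6 TPM. Some gap junction genes also stood higher with UK5099. Gjb2, connexin 26, measured 61.8, 61.9 and 63.3 TPM with butyrate and 442, 438 and 492 TPM with UK5099. Gjb6 and Gjb5 differed by -2.19 and -1.04, and Gjb5 fell short of the limit after scaling (-0.86). Vehicle stood at 41.3 TPM for Gjb2, below both drugs.

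**Figure D3:**
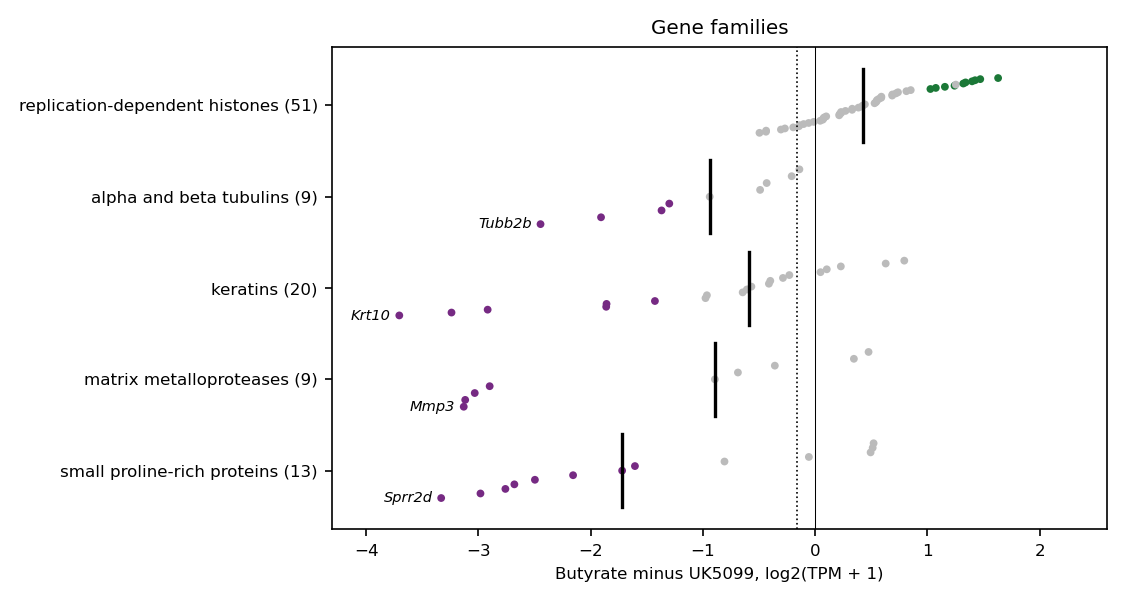
Each point is the difference of 1 gene, butyrate minus UK5099 on log2(TPM + 1), by family, with the number of measured members in brackets; bars are family medians, the dotted line is the median of all genes at -0.16, and coloured points were called. Called members lie to the left (higher with UK5099) in small proline-rich proteins, matrix metalloproteases, keratins and tubulins, and to the right in replication-dependent histones, the families drawn.

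The basal lineage genes differed in degree. Krt14 measured 1365, 1375 and 1432 TPM with butyrate and 4863, 5040 and 5237 TPM with UK5099, a difference of -1.86 ± 0.03 (log2, SE; limma, adjusted p = 7.10e-10). Krt5 stood at 3102 to 3235 TPM with butyrate and 4874 to 4991 TPM with UK5099, a difference of -0.65 that was under the limit of 1. As deposited, vehicle averaged 1848 TPM for Krt5, below both drugs, and 1676 TPM for Krt14, between them. Krt14 stood at -0.27 with butyrate against vehicle (limma, adjusted p = 6.29e-05) and at 1.59 with UK5099. The order of butyrate and vehicle for Krt14 depends on scaling, which lowers vehicle most. Trp63 stood at 8.37 to 8.54 TPM with butyrate and 8.87 to 10.1 TPM with UK5099, a difference of -0.16 that equals the median of all genes and is 0.031 after scaling. Bnc1, basonuclin 1, was the other called gene among 12 measured basal genes, at a mean of 7.11 TPM with butyrate and 21.7 TPM with UK5099. The basal list had a median of -0.61, and -0.39 after scaling.

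Of 15 measured luminal markers, 0 were called in either direction, with 6 at an adjusted p under 0.01 and higher with butyrate and 7 higher with UK5099 (limma; 13 at an unadjusted p under 0.05, as were 70.4% of all genes compared, and 1, Rab17, called by voom). Over all genes compared, 12.2% were higher with butyrate at that adjusted p and 44.6% higher with UK5099. Krt8 stood at 272 to 279 TPM with butyrate and 348 to 373 TPM with UK5099, a difference of -0.40, and Krt18 at 606 to 620 TPM and 739 to 757 TPM, a difference of -0.29. The vehicle means, 916 TPM for Krt8 and 1468 TPM for Krt18, lay above both drugs. Cldn3, a tight junction claudin, leaned the other way, with 309 to 315 TPM with butyrate and 178 to 202 TPM with UK5099 (0.70). Hoxb13, a homeobox gene of the prostate, differed by 0.30, with butyrate samples at 50.9 to 53.9 TPM and UK5099 samples at 41.4 to 43.7 TPM. The luminal list had a median of 0.10 as deposited and 0.32 after scaling.

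Genes of the extracellular matrix and of epithelial-mesenchymal transition formed the list with the lowest median, -0.97 (-0.87 after scaling). Of 29 measured members, 14 were called higher with UK5099 and 0 higher with butyrate. In 2 of those not called every butyrate value lay above every UK5099 value. Tnc, tenascin C, measured 1.21, 1.21 and 1.34 TPM with butyrate and 16.9, 17.98 and 18.7 TPM with UK5099, against a vehicle mean of 21.4 TPM. The drugs differed by -3.06 ± 0.05 (log2, SE; limma, adjusted p = 6.48e-10), and against vehicle UK5099 stood at -0.25 and butyrate at -3.31. Lama3 and Lamb3, which encode laminin subunits of the epithelial basement membrane, were both called. Lama3 averaged 7.40 and 29.5 TPM with butyrate and UK5099, and Lamb3 averaged 15.5 and 35.4 TPM. Lamb3 differed by -1.15 as deposited and by -0.94 after scaling. Fn1 (fibronectin) and Vim (vimentin) were low with both drugs and below vehicle: Fn1 averaged 0.938 TPM with butyrate, 2.14 TPM with UK5099 and 70.2 TPM with vehicle, and Vim averaged 0.364, 1.66 and 7.98 TPM. Between the drugs limma gave -0.70 for Fn1 (adjusted p = 4.01e-07) and -0.97 for Vim (adjusted p = 5.08e-07), short of the limit of 1, and a pseudocount of 1 understates changes at these levels. On fragments voom called both, at -1.02 (adjusted p = 4.94e-12) and -2.02 (adjusted p = 7.64e-09). Vim was also called by limma without UK5099 replicate 3 (-1.0057) or without butyrate replicate 2 (-1.02).

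Of 18 measured genes of the TGF-beta and BMP pathway, 4 were called higher with UK5099 and 1 higher with butyrate, and the other 13 did not pass. After scaling the list was even, with 2 called in each direction, and voom called 5 higher with UK5099 and 3 higher with butyrate. Inhba, which encodes the subunit of the TGF-beta family ligand activin A, measured 9.75, 9.62 and 10.8 TPM with butyrate and 101, 111 and 114 TPM with UK5099, a difference of -3.31 ± 0.07 (log2, SE; limma, adjusted p = 1.22e-09). Tgfb3 measured 0.725, 0.776 and 0.912 TPM against 4.71, 5.18 and 5.46 TPM. Tgfb1 measured 21.6, 23.1 and 21.1 TPM against 50.9, 52.0 and 51.4 TPM, a difference of -1.19 that became -0.99 after scaling. Id1, a transcriptional target of BMP signalling, was the one called as deposited in the butyrate direction, at 49.9, 57.6 and 55.6 TPM against 16.3, 17.9 and 16.7 TPM. Vehicle averaged 168 TPM for Inhba, 7.65 TPM for Tgfb3 and 57.1 TPM for Tgfb1, above both drugs, and 21.5 TPM for Id1. Of 21 Notch and Wnt pathway genes, 3 were higher with UK5099, namely the Notch ligand Jag1 (-1.61) and the Wnt ligands Wnt5a (-1.39) and Wnt10a (-1.16, and -0.96 after scaling). Jag1 measured 24.3, 24.2 and 24.5 TPM with butyrate and 73.0, 75.9 and 80.4 TPM with UK5099. Of 13 genes of the EGF receptor family and its ligands, 0 were called by limma or voom and 10 had an unadjusted p under 0.05, which 70.4% of all genes compared had.

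Among cytokines and inflammatory mediators, 6 of 25 were higher with UK5099 and 2 with butyrate. Ptgs2, the inducible cyclooxygenase, measured 196, 197 and 201 TPM with butyrate and 864, 952 and 982 TPM with UK5099, and vehicle averaged 564 TPM. Csf3, which encodes G-CSF, measured 6.66, 7.56 and 8.25 TPM with butyrate and 36.5, 38.0 and 36.9 TPM with UK5099, with vehicle at 40.3 TPM. Csf2, which encodes GM-CSF, averaged 2.16 TPM with butyrate and 7.999 TPM with UK5099, both below the vehicle mean of 38.5 TPM. Cxcl15, a chemokine of epithelia, was higher with butyrate, at 25.9 to 28.4 TPM against 7.82 to 8.87 TPM. Tslp, an epithelial cytokine that acts on dendritic and other immune cells, measured 66.6, 68.2 and 67.4 TPM with butyrate, 486, 521 and 551 TPM with UK5099 and a mean of 32.0 TPM with vehicle. Its difference was -2.92 ± 0.05 (log2, SE; limma, adjusted p = 8.50e-10), and it exceeded vehicle by 3.98 with UK5099 and by 1.052 with butyrate. Neither the 12 interferon-stimulated genes nor the 15 genes of MHC class I presentation had a called member, with medians of -0.18 and -0.06; 9 and 12 had an unadjusted p under 0.05 (limma; 70.4% of all genes compared), and voom called 1 and 0. H2-Ab1, a beta chain of MHC class II, was higher with butyrate: it measured 6.01, 6.83 and 6.50 TPM against 0.472, 0.656 and 0.495 TPM.

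A few enzymes separated the drugs sharply. Cyp1b1, a cytochrome P450 induced through the aryl hydrocarbon receptor, measured 4.58, 4.47 and 4.20 TPM with butyrate and 59.7, 61.4 and 63.3 TPM with UK5099, a difference of -3.53 ± 0.04 (log2, SE; limma, adjusted p = 1.45e-10). Nat8l, which makes N-acetylaspartate from aspartate and acetyl-CoA, measured 0.216, 0.269 and 0.403 TPM with butyrate and 12.6, 15.7 and 15.4 TPM with UK5099. Vehicle averaged 2.53 TPM for Cyp1b1 and 0.487 TPM for Nat8l, close to butyrate. Nqo1, a quinone reductase and NRF2 target, was at 21.3 to 22.2 TPM with butyrate and 49.99 to 54.6 TPM with UK5099, both above the vehicle mean of 7.62 TPM. It was 1 of 2 called genes among 26 NRF2 and glutathione genes; the other, Gsta3, was higher with butyrate (1.30). Of 11 measured retinoic acid genes, 2 were called, both higher with UK5099. Crabp2, which carries retinoic acid to its receptors, averaged 12.7 TPM with butyrate and 37.4 TPM with UK5099, and Aldh1a3, which makes retinoic acid, differed by -1.04 and by -0.83 after scaling. Cyp26b1, which degrades retinoic acid, went the other way, at 2.77 to 2.99 TPM with butyrate and 0.981 to 1.27 TPM with UK5099. It stood at 0.88 as deposited, short of the limit, and was called after scaling (1.01) and by voom (1.54).

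On the butyrate side, the 12 highest protein-coding genes were led by Thbs2, thrombospondin-2, which measured 21.6, 22.2 and 22.0 TPM with butyrate and 2.36, 2.48 and 2.76 TPM with UK5099. Its difference was 2.699 ± 0.05 (log2, SE; limma, adjusted p = 6.53e-10), and vehicle averaged 0.570 TPM. It led on log2(TPM + 1), whereas its ratio of means, 8.65, was below the 17.8 of Tff1. Several others encode products of secretory or mucosal epithelium. Tff1, a trefoil peptide, measured 8.02, 8.51 and 7.69 TPM against 0.486, 0.471 and 0.405 TPM. Agr2, a disulphide isomerase that folds mucins, measured 11.4, 12.04 and 10.9 TPM against 2.28, 2.16 and 1.70 TPM. Clca1, a secreted protein of goblet cells, measured 48.2, 49.7 and 47.9 TPM against 9.29, 7.33 and 5.34 TPM. Lrg1, a secreted leucine-rich glycoprotein, stood at 17.9 to 20.4 TPM against 1.98 to 2.73 TPM. In each the lowest butyrate sample was above the highest UK5099 sample. Vehicle averaged 0.0928 TPM for Tff1, 1.92 TPM for Agr2, 12.9 TPM for Clca1 and 3.61 TPM for Lrg1, so that for Clca1 and Lrg1 the UK5099 level lay below vehicle.

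Receptors and matrix proteins made up most of the remainder. Fgfr3, a fibroblast growth factor receptor, measured 68.2, 66.7 and 69.3 TPM with butyrate and 13.2, 13.7 and 12.5 TPM with UK5099, a difference of 2.29 ± 0.04. Its fragments came out fractional in the few samples where this could be read. Ngfr, the low-affinity neurotrophin receptor, measured 7.54, 8.01 and 8.10 TPM against 1.26, 1.2005 and 1.21 TPM. Mgp, matrix Gla protein, measured 44.7, 44.1 and 43.9 TPM against 6.89, 7.93 and 8.27 TPM. Dcn, decorin, measured 9.62, 9.37 and 9.56 TPM against 1.03, 1.40 and 1.24 TPM. Decorin is also a stromal marker, 1 of 7 in the table. The summed level of these stromal markers was 10.5 to 10.8 TPM with butyrate, 2.49 to 2.87 TPM with UK5099 and, in vehicle, 2.30 to 2.36 TPM, and Dcn was the only one that reached 1 TPM in either drug group by its mean. Col1a1 (0.659 to 0.803 TPM with butyrate, 0.885 to 1.01 TPM with UK5099), Col3a1 and Acta2, other markers of the list, went the other way, with every butyrate sample below every UK5099 sample. The part of other cells in the Dcn value was not tested. Cd68, a lysosomal protein used as a macrophage marker, was higher with butyrate (66.2 to 68.6 against 29.7 to 30.9 TPM), while Ptprc, the common leukocyte antigen, stayed at or near 0 in all groups. Pi15, a secreted peptidase inhibitor, and Depp1, a FOXO-induced gene, completed the 12, at differences of 2.16 and 1.94.

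Genes for pyruvate handling differed little at the RNA level. Mpc1 measured 4.62, 4.85 and 4.41 TPM with butyrate and 6.02, 6.59 and 6.45 TPM with UK5099, a difference of -0.39, though all its fragment values were fractional. Mpc2 measured 3.52, 3.39 and 3.19 TPM against 3.65, 3.64 and 3.32 TPM, a difference of -0.05 ± 0.04 (log2, SE; limma, adjusted p = 0.290) that overlapped between the drugs and was 0.11 after scaling. Of 18 measured genes for the carrier, pyruvate dehydrogenase and lactate, 1 was called. This was Slc16a1, the monocarboxylate transporter MCT1, which carries lactate, pyruvate and butyrate. It measured 39.7, 39.9 and 40.8 TPM with butyrate and 17.1, 19.003 and 18.6 TPM with UK5099, with vehicle at 18.3 TPM. Bsg, basigin, the chaperone that brings this transporter to the membrane, differed by 0.84 as deposited and by 1.06 after scaling, where it was also called. The transporter was thus 2.20 times higher with butyrate.

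Of the 16 glycolysis genes and 22 TCA cycle genes measured, 0 were called by limma or voom, with medians of -0.05 and -0.11, and 14 and 20 had an unadjusted p under 0.05, against 70.4% of all genes compared. Txnip, the thioredoxin-interacting protein whose RNA follows glucose through MondoA, was higher with butyrate at 841, 769 and 809 TPM against 319, 320 and 309 TPM, with vehicle at 412 TPM. The difference was 1.35 ± 0.04 (log2, SE; limma, adjusted p = 5.40e-09). Its relative Arrdc4 stood at 0.44 and was not called. Of 26 genes for fatty acid oxidation and butyrate use, 1 was called, the medium-chain acyl-CoA synthetase Acsm3, at 6.65, 6.60 and 6.57 TPM against 1.37, 0.920 and 1.12 TPM, with fractional fragments. Cholesterol synthesis genes had 0 of 24 called (23 at an unadjusted p under 0.05, 0 by voom), but 21 stood higher with UK5099 at an adjusted p under 0.01 (limma), where 44.6% of all genes compared passed in that direction and 56.8% in either. Their median was -0.32, and -0.12 after scaling. In the integrated stress response list 1 of 22 was called, Atf3. Slc7a5, a leucine transporter of that list, averaged 30.0 TPM with butyrate and 14.5 TPM with UK5099; its difference of 0.998 was just short of the limit and was called after scaling (1.201).

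**Figure D4:**
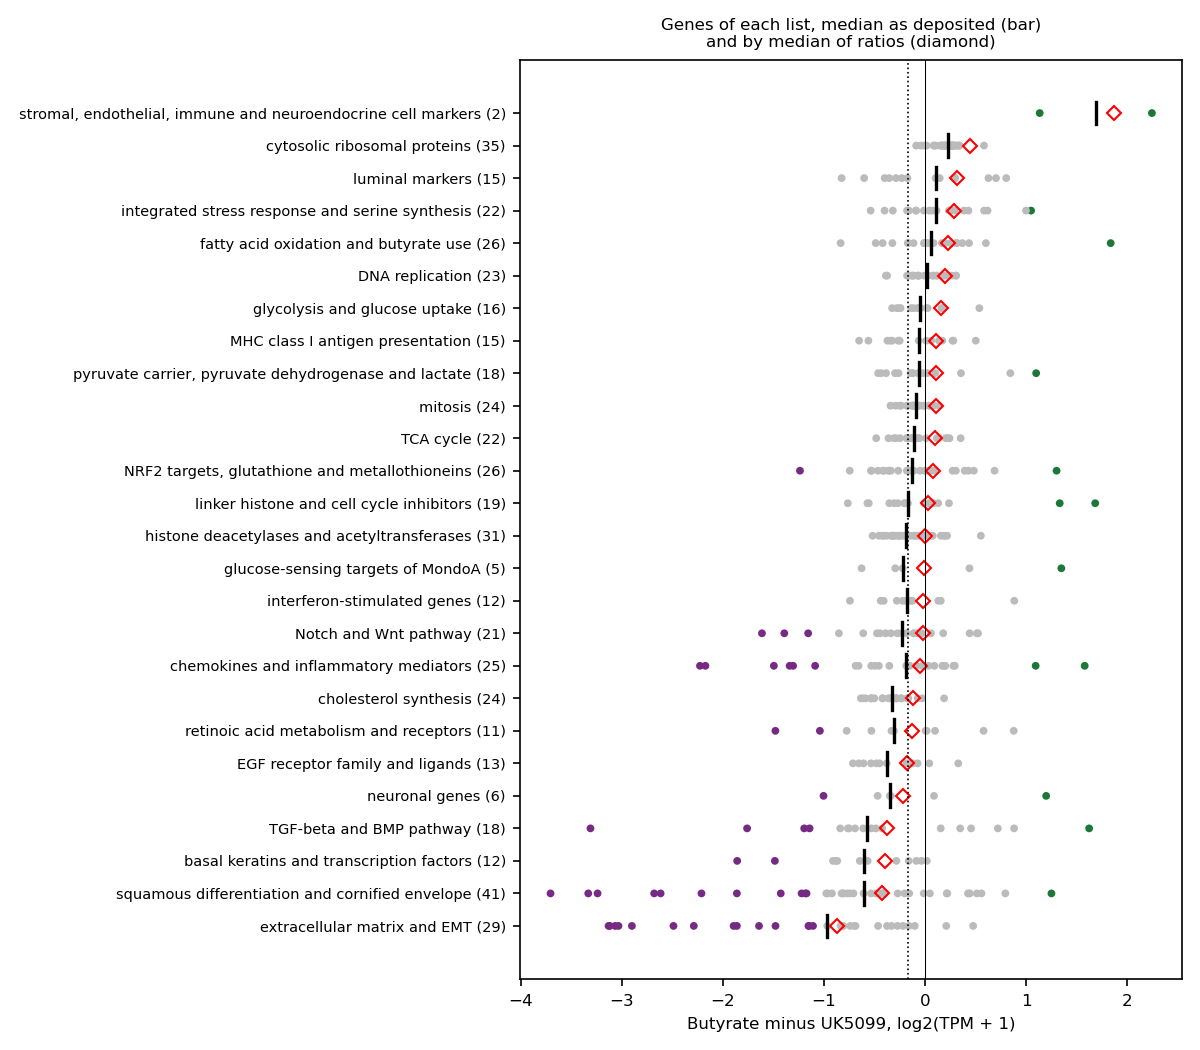
Differences (butyrate minus UK5099, log2(TPM + 1)) of the genes in each of 26 lists, with the number measured in brackets; bars are medians as deposited, red diamonds medians after that scaling, and the dotted line the median of all genes. The extracellular matrix list has the lowest median, -0.97, and cytosolic ribosomal proteins stand at 0.23; green and purple points were called.

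Histone deacetylases, acetyltransferases and their partners had 0 of 31 measured members called by limma or voom, with 25 at an unadjusted p under 0.05, against 70.4% of all genes compared. Hdac11 showed the highest value, 0.55, and Sin3a, a scaffold of deacetylase complexes, the lowest, -0.52. H1f0, a linker histone known to rise with deacetylase inhibitors, measured 828, 834 and 839 TPM with butyrate, 757, 772 and 755 TPM with UK5099 and a mean of 888 TPM with vehicle. Cdkn1a, which encodes p21 and is another known target of these inhibitors, was lower with butyrate than with UK5099, at 77.6, 77.0 and 79.6 TPM against 134, 130 and 136 TPM, and vehicle averaged 120 TPM. Neither reached a difference of 1 between the drugs (0.13 and -0.76, or 0.34 and -0.55 after scaling). For H1f0 the order of butyrate and vehicle depends on scaling, which lowers vehicle most. Ccnd2 (cyclin D2) and Gadd45g were the 2 called of 19 genes in that list, both higher with butyrate. Ccnd2 measured 52.8, 54.4 and 56.1 TPM against 15.1, 16.8 and 17.0 TPM. Of the replication-dependent histone genes, 10 of 51 were higher with butyrate and 0 with UK5099, with differences from 1.03 to 1.63. These genes are near-identical copies and nearly all of their fragment values were fractional, so single histone genes are uncertain, and H2bc8, H3c1 and H3c3 lost the call when single samples were left out. DNA replication and mitosis genes had 0 of 23 and 0 of 24 called by limma or voom, with 15 and 12 at an unadjusted p under 0.05, no larger a share than the 70.4% over all genes.

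Cytosolic ribosomal proteins leaned together without reaching the limit. Of 35 genes, 0 were called, 27 were higher with butyrate at an adjusted p under 0.01 and 0 higher with UK5099 (limma), and voom called 0. Over all genes compared, 12.2% were higher with butyrate at that limit. The median was 0.23 as deposited and 0.44 after scaling. Rps18, for example, stood at 306 to 319 TPM with butyrate and 245 to 251 TPM with UK5099. Alpha and beta tubulins leaned the other way, with 4 of 9 higher with UK5099: Tubb2b, Tuba1a, Tubb6 and Tuba4a. The level of Tubb2b is uncertain, because its fragments came out fractional where this could be read. Tuba1a measured 60.3, 62.0 and 65.1 TPM with butyrate and 228, 243 and 240 TPM with UK5099, below the vehicle mean of 342 TPM. Of 6 measured neuronal genes, Rundc3a was higher with butyrate (1.198) and the tubulin-binding Stmn2 higher with UK5099 (-1.004, a call lost without UK5099 replicate 3, at -0.989, or without butyrate replicate 1, at -0.996, and also after scaling, at -0.95). Stmn2 averaged 0.0340 TPM with butyrate and 1.07 TPM with UK5099, a ratio of 31.6 that the pseudocount shrinks, and voom called it at -4.82.

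Set against vehicle, which both drugs share, both sides of the comparison held more genes called with butyrate than with UK5099. Of the 168 genes higher with butyrate, 98 were called above vehicle with butyrate (2% of all genes compared were) and 15 below vehicle with UK5099 (1.34%). Of the 291 genes higher with UK5099, 163 were called below vehicle with butyrate (3.91%) and 69 above vehicle with UK5099 (1.65%). The median gene of the 168 stood at 1.16 with butyrate and at -0.14 with UK5099, both against vehicle. That of the 291 stood at -1.10 with butyrate and at 0.23 with UK5099. Because the genes were chosen by the difference between the drugs, these counts are descriptions. They were made on deposited values only. Scaling by the median of ratios lowers vehicle against both drugs, most against butyrate, and its effect on these counts was not tested.

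Genes called in opposite directions against vehicle, as deposited, numbered 6, all higher with UK5099 and lower with butyrate: Mmp3, Mmp13, Dynap, Has2, Pglyrp2 and Clcf1. Butyrate minus vehicle was -1.09 for Pglyrp2, -1.15 for Mmp3 and -1.29 for Clcf1, near the limit, so these calls may depend on scaling. Has2, a hyaluronan synthase, measured 0.961, 1.01 and 1.16 TPM with butyrate and 12.3, 13.3 and 14.2 TPM with UK5099, on either side of a vehicle mean of 4.25 TPM. Clcf1, a cytokine of the IL-6 family, measured 2.56, 2.32 and 2.44 TPM against 16.7, 14.7 and 16.3 TPM, with vehicle at 7.45 TPM. Dynap differed by -2.89 and Pglyrp2, which cleaves bacterial peptidoglycan, by -2.71. Fragments of Pglyrp2 came out fractional where this could be read, so its separate level is uncertain. For the 6 genes the vehicle samples thus lay between the drugs.

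Genes that do not encode proteins gave 74 of the 459 calls, 27 of them pseudogenes and 31 long non-coding RNAs. Gm12349, a long non-coding RNA, measured 45.8, 47.3 and 48.7 TPM with butyrate and 7.87, 7.55 and 7.17 TPM with UK5099 (2.50). G430049J08Rik stood at 15.2 to 17.6 TPM against 0.292 to 0.747 TPM (3.54), on log2(TPM + 1) the largest difference of any called gene on the butyrate side. The mitochondrial tRNA mt-Ty measured 38.4, 38.1 and 25.6 TPM against 2.01, 3.90 and 3.61 TPM. This rests on 1 to 24 fragments per sample, and vehicle spread over 2.25, 9.31 and 19.7 TPM. On the other side, Gm49990 and Gm15242, processed pseudogenes, differed by -2.89 and -2.38 and Hmga2-ps1 by -2.21, and fragments of Hmga2-ps1 were all fractional. Gm49990 had at most 25.1 fragments and Gm15242 at most 22.0 in any sample of either drug, so both lie near the floor. Pseudogenes together held 46.1% ± 0.197 of TPM with butyrate and 43.0% ± 0.180 with UK5099 (SD, n = 3), and nuclear protein-coding genes 35.3% ± 0.296 and 39.9% ± 0.410. These TPM are divided by genomic span, so genes of short span weigh more than their fragments do. Of recovered fragments, pseudogenes held 7.56% with butyrate and 6.13% with UK5099, and nuclear protein-coding genes 86.5% and 89.0%. The groups did not overlap, and the exact permutation test gave p = 0.1, the smallest that 3 against 3 samples allow. This difference in composition moves with the median gene at -0.16. As deposited, 128 protein-coding genes were called higher with butyrate and 257 higher with UK5099. With nuclear protein-coding genes rescaled alone, 257 were called higher with butyrate and 227 higher with UK5099. That rescaling also makes the pseudocount weigh less. The part of composition in single differences was not tested.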

How the data were processed

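RNA from 12 organoid samples was sequenced as read pairs, and the authors deposited TPM per gene. Per the study's methods, reads were trimmed with fastp, aligned with STAR and quantified with RSEM on GRCm38, whereas the submitters' processing notes name STAR 2.7.9a, Partek and GRCm39; the library kits named also differ. The table names no build, and its nuclear coordinates equalled those of GENCODE for GRCm38 in 2.51% of genes, so no coordinates of the table are printed. In the deposited TPM, fragments had been divided by the genomic span of each gene (stop minus start in 100% of genes), so levels are compared within a gene only.

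Here, fragments were recovered from the smallest steps of each sample. Of values under 1000 fragments, about 2 in 3 were whole within 0.02 of a fragment; the others were read as fragments divided among genes.

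The fit used limma 3.58.1 in R 4.3.3 on log2(TPM + 1) with all 12 samples and 24674 genes, a mean per group, empirical Bayes moderation and Benjamini-Hochberg adjustment. This is the study's 2-factor model written as group means; the pseudocount of 1 was chosen here and understates changes of low genes. On simulated fragments for 24674 genes, with butyrate changed against UK5099, 81 of 100 genes changed by 3-fold and 92 of 100 changed by 8-fold were recovered, with 0 unchanged genes called. All groups were simulated around a common mean, with a small fixed spread and equal numbers of genes raised and lowered. A shift in composition like that of the deposited values was not built in, so the simulation cannot show how scaling affects calls.

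Named genes were the 12 highest and 12 lowest called protein-coding genes, up to 4 per list by size of difference, 12 lineage and drug-related genes, genes called against vehicle in opposite directions, and 3 non-coding genes per direction. The genes compared and the 26 lists were chosen with earlier results of these data known, and the gene families after their values were seen. Replicate numbers did not pair the samples. Alternatives were pseudocounts of 0.1, 0.01 and 4, a filter, median of ratios, quantile normalisation, nuclear protein-coding genes alone, voom with TMM on recovered fragments of genes with at least 10 over 12 samples, another prior, a replicate block, 6 samples alone, each sample left out and other limits. RefSeq promoters were matched by symbol and searched over 250 bases. Scripts ran in Python 3.11.15 with pandas 2.3.3, numpy 2.4.6 and scipy 1.17.1, and figures in matplotlib 3.10.9.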

Additional observations from a re-analysis of the deposited data

How the results depend on the processing

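The number of genes called, 459 (168 higher with butyrate, 291 higher with UK5099), followed the pseudocount and the limits: 775 (300 and 475) at a pseudocount of 0.1, 812 (310 and 502) at 0.01, 206 (53 and 153) at 4, 61 (13 and 48) at an absolute difference over 2, and 7873 (1692 and 6181) with no limit on the difference. Scaling moved the balance: 182 were higher with UK5099 by median of ratios and 191 by quantile normalisation, 257 were higher with butyrate among nuclear protein-coding genes rescaled alone, and voom on fragments called 786, 450 of them higher with butyrate. Median of ratios, quantile normalisation and voom together called 340 of the 459 in the same direction, 167 higher with butyrate and 173 higher with UK5099. Leaving out each of the 12 samples in turn gave 444 to 462 genes, 159 to 169 higher with butyrate and 281 to 302 higher with UK5099, and 395 genes were called in all 12 of these fits. With the replicate block 457 were called (165 and 292); same-numbered samples deviated with correlations from -0.01 to 0.03, so the numbers do not pair them. Trp63, at -0.16, changed sign to 0.031 by median of ratios and 0.043 by quantile normalisation; Mpc2, at -0.05, stood at 0.11 and 0.074 by these, 0.10 with nuclear protein-coding genes alone and 0.11 by voom. Of 97 called genes among the 177 named, 71 kept their call in every setting tried. Near 1 TPM the pseudocount shrinks differences. Fragments do not follow TPM between genes, because TPM were divided by genomic span. Fn1, at means of 0.938 and 2.14 TPM, had 500 to 1238 fragments per butyrate or UK5099 sample. mt-Ty, at up to 38.4 TPM, had 1 to 24.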

Other observations

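2 carboxylesterases of the Ces2 group, enzymes that hydrolyse esters and drugs, were higher with butyrate among 3 measured. Ces2g measured 58.3, 59.7 and 57.8 TPM with butyrate and 20.1, 18.9 and 21.8 TPM with UK5099, with a vehicle mean of 7.45 TPM and 85.5 TPM with both drugs. Ces2e stood at 5.79 to 6.34 TPM with butyrate and 0.745 to 1.22 TPM with UK5099. Ly6c1, a GPI-anchored surface antigen, was the 1 called gene of 10 measured in the Ly6 family, at 214, 216 and 219 TPM with butyrate and 77.1, 79.0 and 77.2 TPM with UK5099. Vehicle averaged 41.1 TPM and both drugs together 224 TPM. None of these values overlapped between the single drugs. Both families were picked after their values were seen.

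In the samples given both drugs, genes called between the single drugs mostly stood nearer to butyrate as deposited: 126 of the 168 higher with butyrate and 201 of the 291 higher with UK5099. With median-of-ratios scaling these counts were 181 of 225 and 95 of 182. The position is computed from the same butyrate and UK5099 means that chose the genes, and no test was made. The genes higher with UK5099 include cases of each kind. Cyp1b1 averaged 69.8 TPM with both drugs, at the level of UK5099 alone, whereas Tnc averaged 2.96 TPM, near butyrate alone, and Krt6b averaged 384 TPM, above either drug, with its fragments shared.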
